A study of Homo sapiens with 6 samples.

Results

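Flow-through RNA is the unlabelled RNA that passed the streptavidin beads after a pulse of 4-thiouridine (4sU), a uridine analogue that living cells build into new transcripts. It was compared between HEK293 cells transfected with MOV10 siRNA and mock-transfected HEK293 cells, over all 7682 genes of the table. No further selection was made, but the table holds only genes above a minimum value in every column. HEK293 is an established human embryonic kidney line. Both groups received 700 µM 4sU for 60 min. The labels name no control siRNA for the mock group, so an effect of siRNA transfection as such and the loss of MOV10 cannot be told apart. GEO lists 1 flow-through sample per group, while the table gives 2 columns per group, named replicate 1 and replicate 2. Whether the 2 columns came from separate cultures is not stated, and the p-values therefore reflect only how much these columns vary. Labelled RNA and total RNA of the same groups were measured too and are used below only to set beside the flow-through.

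The label marks transcripts made during the pulse, so the flow-through is depleted of them. Taken over all transcripts, it holds mostly RNA that was already present when the label was added. A long-lived mRNA is therefore found mainly in the flow-through, and a short-lived one mainly in the labelled fraction. How much of the flow-through of a given short-lived mRNA was made before the pulse was not measured. MOV10 is an RNA helicase that binds mRNAs, largely in their 3′ untranslated regions (3′ UTRs), and was studied in this series with UPF1, the helicase at the centre of nonsense-mediated mRNA decay (NMD). It is also known as a cofactor of microRNA silencing complexes and as a restriction factor of retroelements and retroviruses.

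A 7-base sequence, TACTGCA, is shown first because it recurs among the genes that fell most. It lay in the 3′ UTR of 46 of 124 genes lower by 1 log2 unit or more (37.1%), against 12.4% of all 3′ UTRs. Most of the 124, 70 genes, carried it in neither 3′ UTR nor coding part. The sequence had already been noticed in an earlier look at the RNA half-lives of the same samples. Below are the sites in 10 of the genes described here, all of which fell. Carriers that rose, such as ADARB1 (3′ UTR) and ROBO1 (coding part), are not shown. Sites are read 5′ to 3′ from GENCODE v29 transcripts, with the 7 bases in capitals and the flanking bases in lower case. The 2 sites of MOV10 and the 2 sites of CDC42EP1 lie in the coding part, and all others shown lie in the 3′ UTR. Of 726 genes with the sequence in the coding part but not in the 3′ UTR, 8 (1.10%) were lower by 1 log2 unit or more, against 1.18% of the genes with it in neither part. MBNL1 carries 3 sites in its 3′ UTR, of which 1 is shown.
MOV10, first coding site: agaaaatccgtTACTGCAtcaccaaacttg
MOV10, other coding site: gggacagaattTACTGCAaggtctgagcaa
CDC42EP1, first coding site: cccccagccccTACTGCAaaccccacgggt
CDC42EP1, other coding site: cccccagccacTACTGCAaaccccccagcg
MBNL1: acttccaagttTACTGCAagtttttatgct
SMAP1: atgatttcatgTACTGCAttatttgagaag
DUT: ccttctaaaagTACTGCAttttttactttt
CITED2: agggcagatatTACTGCAcaaactgccatc
VGLL4: tatactgttatTACTGCAtttattatttgc
WBP11: tgttcagaattTACTGCAcataaaaaaggg
EIF6: ggatctatcatTACTGCAaaaacctgctct
LDHA: aatgctgtacgTACTGCAtttgccccttga

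Values are the authors' normalised expression signal, whose unit is not named, and they are not counts, so the depth behind each value is unknown. All flow-through values were 1.01 or more, so genes that fell below about that level after siRNA are not analysed here. The column sums ranged from 500433 to 529330. Over genes, the Spearman correlation of the 2 columns was 0.996 in mock and 0.996 after siRNA. The cell line check is thin, since 3 of the listed HEK293 markers, VIM, INA and NEFL, and 0 of the listed markers of other cell types were in the table. The other listed HEK293 markers, KRT8, KRT18, PAX2, LHX1 and NEFM, were absent from it.

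MOV10 RNA itself was depleted. In flow-through RNA it measured 19.6 and 19.3 in the mock columns and 5.13 and 5.38 in the siRNA columns. Both siRNA columns lay well below both mock columns, a 3.70-fold lower mean level. On the scale used for every change below, which is the siRNA minus mock difference of log2(value + 1) after each column was centred on its median gene, MOV10 fell by 1.71 (SE 0.06, limma, Benjamini-Hochberg adjusted p = 5.34e-05). In total RNA it went from 13.1 and 14.6 to 3.53 and 3.64 (change -1.68). In labelled RNA, made during the pulse, it went only from 2.95 and 3.20 to 2.55 and 2.63 (change -0.31, limma adjusted p = 0.0445). The flow-through fall exceeded the labelled one by 1.40 on the log2 scale (limma interaction, adjusted p = 1.23e-05), and did not differ detectably from the fall in total RNA (difference -0.03, limma adjusted p = 0.88). UPF1 flow-through RNA measured 36.1 and 34.8 in mock and 33.2 and 34.1 after siRNA. Its change of -0.08 (SE 0.05) did not pass the test (limma adjusted p = 0.194).

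Many genes changed, but few by much. By limma at an adjusted p under 0.05, 1977 of the 7682 genes (25.7%) were higher after siRNA and 2113 (27.5%) were lower, together 4090 (53.2%). Both siRNA columns lay above both mock columns in 3085 genes (40.2%) and below them in 2984 (38.8%). The middle of the distribution was narrow, with the 25th and 75th percentiles of change at -0.24 and 0.19. The SD of the changes over genes was 0.36, against 0.13 for the difference of replicate 2 from replicate 1 in mock and 0.14 after siRNA. The distribution was lopsided at its ends. A change of 0.5 log2 units or more was seen downwards in 753 genes (9.8%) and upwards in 231 (3.01%), and a change of 1 log2 unit or more downwards in 127 (1.65%) and upwards in 4 (0.0521%). The rises of this size lay in 4 genes only, and CHGB and SCG3 were the pair among them that passed both the test and the expression floor of the naming rule.

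The largest falls reached more than 5-fold. UBE2MP1, a pseudogene related to the NEDD8-conjugating enzyme UBE2M, measured 210 and 216 in mock and 40.0 and 38.8 after siRNA (change -2.41, SE 0.04, limma adjusted p = 9.79e-06). Reads that the pseudogene shares with its parent could not be separated, so the value may belong to either. ZCCHC12, a zinc finger coactivator, measured 67.2 and 65.8 in mock and 12.1 and 12.6 after siRNA (change -2.34, SE 0.05). The columns of each group lay close together in both genes, and the groups were far apart. PRR7, a proline-rich membrane protein, measured 20.6 and 14.8 in mock and 3.01 and 3.27 after siRNA (change -2.16, SE 0.14). The homeobox factor DLX2 measured 42.9 and 43.6 against 10.2 and 9.28 (change -2.05, SE 0.06). CDC42EP1, an effector of the small GTPase CDC42, measured 81.9 and 84.3 against 17.98 and 22.2 (change -2.01, SE 0.09). PRR7 had the least even mock columns of these genes, yet its lower mock column was still more than 4 times its higher siRNA column.

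Below these came regulators of transcription, splicing and trafficking. CITED2, which binds the coactivators CBP and p300, measured 21.4 and 23.5 in mock and 3.84 and 6.24 after siRNA (change -1.99, SE 0.18). MBNL1, a regulator of alternative splicing, measured 24.1 and 23.9 against 6.10 and 5.54 (change -1.88, SE 0.07). SMAP1, which activates the GTPase activity of ARF6, measured 14.3 and 12.7 against 3.24 and 3.49 (change -1.73, SE 0.08). In all 3 genes the groups were far apart, although the siRNA columns of CITED2 were uneven. The imprinted gene PHLDA2 measured 11.1 and 12.8 against 2.95 and 2.89 (change -1.73). DUT, the enzyme that removes dUTP, measured 208 and 190 against 62.0 and 62.8 (change -1.66). LAPTM4A, a lysosomal membrane protein, measured 81.1 and 77.9 against 24.8 and 24.6 (change -1.65). The levels of these 3 genes differ widely, and as ratios of means the falls were 4.10-fold, 3.19-fold and 3.22-fold, since the added 1 understates the change of PHLDA2, the lowest of them. The cyclin CCNJ measured 16.6 and 15.7 against 4.53 and 4.84 (change -1.60). VGLL4, a TEAD cofactor, measured 14.7 and 14.7 against 3.92 and 4.66 (change -1.58). The AP-1 factor JUND measured 61.1 and 52.6 against 18.03 and 18.8 (change -1.57). The 15 largest falls were chosen among genes that passed limma with separated columns and a mean of 5 or more. Their limma adjusted p-values, MOV10 included, ran from 9.79e-06 (UBE2MP1) to 0.000545 (CITED2).

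**Figure D1:**
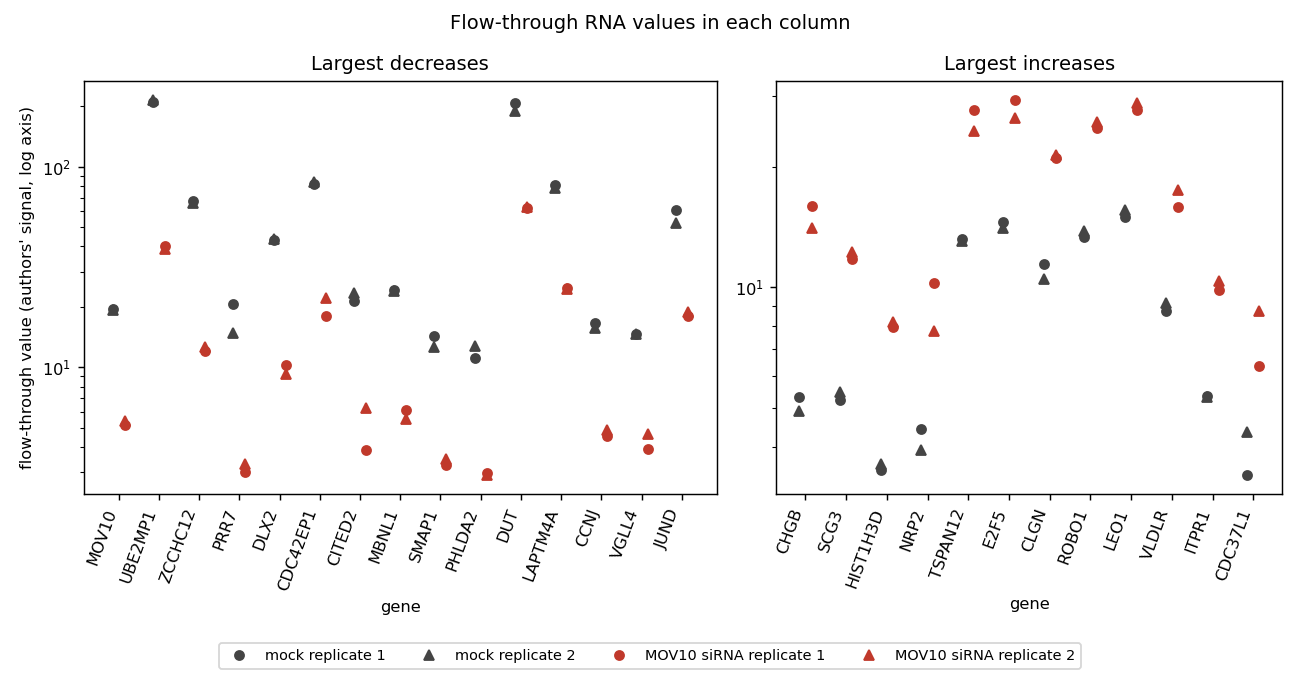
Flow-through value of each gene (y axis, the authors' normalised signal with no unit named, log scale) in the 2 mock columns (grey) and the 2 MOV10 siRNA columns (red), for the 15 largest decreases (left) and the 12 largest increases (right). In every gene shown the columns of one condition lie on the same side of both columns of the other, which the choice of genes required; MOV10 goes from 19.6 and 19.3 to 5.13 and 5.38.

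JPH3, a junctional membrane protein, is set apart because its mock columns differ widely, so the size of its change depends on the one used. It measured 69.95 and 5.02 in mock and 2.96 and 2.46 after siRNA, so its change of -2.49 had an SE of 1.02 and did not pass (limma adjusted p = 0.084). Without mock replicate 1 the change was -0.71 (limma adjusted p = 0.00913), and without mock replicate 2 it was -4.26. Total RNA of JPH3 was low in both siRNA columns (35.3 and 29.8 in mock, 2.83 and 3.43 after siRNA), and labelled RNA was high in both (3.90 and 3.98 in mock, 21.9 and 22.8 after siRNA).

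The rises were smaller, and none of the 12 listed here gave a level above 3-fold. They were chosen by the same rule as the falls. The largest change among histones, 1.21, lay outside that rule. CHGB, chromogranin B of secretory granules, measured 5.33 and 4.93 in mock and 16.0 and 14.1 after siRNA (change 1.38, SE 0.08, limma adjusted p = 0.000201). SCG3, another granin, measured 5.24 and 5.47 against 11.8 and 12.2 (change 1.03, SE 0.07). Both granule proteins are typical of neuroendocrine cells. In total RNA CHGB changed by 0.58 and SCG3 by 0.96. HIST1H3D, a replication-type histone H3 gene, measured 3.50 and 3.64 against 7.97 and 8.19 (change 0.99), while its total RNA changed by 0.01. Its flow-through change was not past the threshold when the variance was shared over 12 columns (limma adjusted p = 0.0500047). The semaphorin and VEGF receptor NRP2 measured 4.44 and 3.93 against 10.3 and 7.79 (change 0.94). The tetraspanin TSPAN12 measured 13.2 and 13.1 against 27.7 and 24.6 (change 0.93). NRP2 had the wider spread among these, and columns that do not overlap were required for a gene to be listed. E2F5, a repressive member of the E2F family, measured 14.5 and 14.1 against 29.3 and 26.5 (change 0.91). CLGN, a chaperone of the endoplasmic reticulum, measured 11.4 and 10.5 against 21.0 and 21.4 (change 0.89). ROBO1, the receptor of SLIT guidance cues, measured 13.4 and 13.8 against 24.95 and 25.8 (change 0.85). In these 3 genes the mean after siRNA was 1.95, 1.93 and 1.87 times that in mock. LEO1, a subunit of the PAF1 elongation complex, measured 14.96 and 15.6 against 27.7 and 28.9 (change 0.84). The lipoprotein receptor VLDLR changed by 0.82, the calcium channel ITPR1 by 0.80 and the HSP90 cochaperone CDC37L1 by 0.80. Limma adjusted p-values of the 12 listed rises ran from 0.000201 (CHGB) to 0.00685 (CDC37L1).

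The next question was whether the flow-through changes were also present in new RNA. By limma, labelled RNA was higher in 661 genes (8.6%) and lower in 836 (10.9%), and total RNA was higher in 824 (10.7%) and lower in 1083 (14.1%). Of the 127 genes that were lower by 1 log2 unit or more in flow-through RNA, all 127 had both siRNA columns below both mock columns and 126 passed limma. In total RNA 101 of the 127 were lower by the test. In labelled RNA 94 were lower and 1 was higher. Their median change was -1.21 in flow-through, -0.83 in total and -0.47 in labelled RNA. Of the 228 genes that rose by 0.5 or more and passed limma, the median change was 0.37 in total and 0.30 in labelled RNA. Since the genes were chosen by their flow-through values, these counts and medians are a description.

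The difference between fractions was tested by an interaction term over all 12 columns. The flow-through change lay below the labelled change in 528 genes (6.87%) and above it in 284 (3.7%). Against total RNA it lay below in 273 genes (3.55%) and above in 167 (2.17%). Of the 127 large falls, 90 were past the test against labelled RNA and 57 against total RNA. Their choice by a large flow-through fall favours such differences, so these shares are a description only. The interaction counts are not steady: when mock replicate 1 or 2, or siRNA replicate 1 or 2, was left out in all fractions, they ranged from 192 to 322 below and 50 to 123 above labelled RNA, and from 8 to 164 below and 2 to 40 above total RNA. The lowest count below the total change, 8, came without mock replicate 1.

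Several genes fell in flow-through and total RNA with little or no change in labelled RNA. EIF6, which keeps ribosomal subunits apart, measured 266 and 259 in mock flow-through and 108 and 113 after siRNA (change -1.24). Its labelled RNA measured 90.6 and 86.2 in mock and 118 and 110 after siRNA (change 0.23, limma adjusted p = 0.0683), and its total RNA changed by -1.38. LDHA, lactate dehydrogenase A, measured 422 and 417 in mock flow-through and 173 and 176 after siRNA (change -1.26). Its labelled RNA measured 102 and 90.7 in mock and 108 and 107 after siRNA (change 0.03). In both genes the groups were far apart in flow-through RNA, and the flow-through fall was beyond the labelled one by the test (limma interaction, adjusted p = 1.14e-06 for each). WBP11, a splicing factor, measured 71.2 and 73.1 in mock flow-through and 23.7 and 23.8 after siRNA (change -1.57), with a labelled change of -0.14. The mitochondrial ribosomal protein MRPS2 measured 89.6 and 83.3 against 33.7 and 34.7 (change -1.32), with a labelled change of -0.02. GSPT1, the release factor eRF3a, measured 83.3 and 81.5 against 51.0 and 50.1 (change -0.70), with a labelled change of 0.17. NDUFB10, a subunit of respiratory complex I, measured 278 and 263 against 131 and 139 (change -0.9995), with a labelled change of -0.01. The labelled changes of these 4 genes did not pass the test, while their flow-through changes did.

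Other genes also fell in labelled RNA, by a similar or a smaller amount. JUND labelled RNA went from 112 and 116 to 55.8 and 46.3 (change -1.28), beside a flow-through change of -1.57. The difference of -0.30 was not past the test (limma interaction, adjusted p = 0.213). Its total RNA changed by only -0.36, so the flow-through fall exceeded the total one by 1.22 on the log2 scale (limma interaction, adjusted p = 0.00144). Total RNA holds both other fractions. Each fraction was centred on its own, so a change is relative to the typical gene of that fraction only. Where total RNA changed less than both other fractions, here and below, the reason was not tested. ZFP36L2, an mRNA-destabilising zinc finger protein, also fell least in total RNA. Its flow-through RNA measured 17.9 and 18.9 in mock, and 6.32 and 6.65 after siRNA (change -1.38), against -0.74 in labelled and -0.21 in total RNA. Unlike that of JUND, its flow-through fall was beyond the labelled one by the test (limma interaction, adjusted p = 0.0111). ZCCHC12 fell in all fractions, by 2.34 in flow-through, 2.40 in total and 1.68 in labelled RNA on the log2 scale, and its flow-through fall was also beyond the labelled one (limma interaction, adjusted p = 0.00152). SLC2A3, the glucose transporter GLUT3, moved in opposite directions. Its flow-through RNA rose from 4.29 and 4.58 to 7.74 and 8.11 (change 0.71) and its labelled RNA fell from 9.41 and 8.30 to 6.97 and 6.92 (change -0.44).

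**Figure D2:**
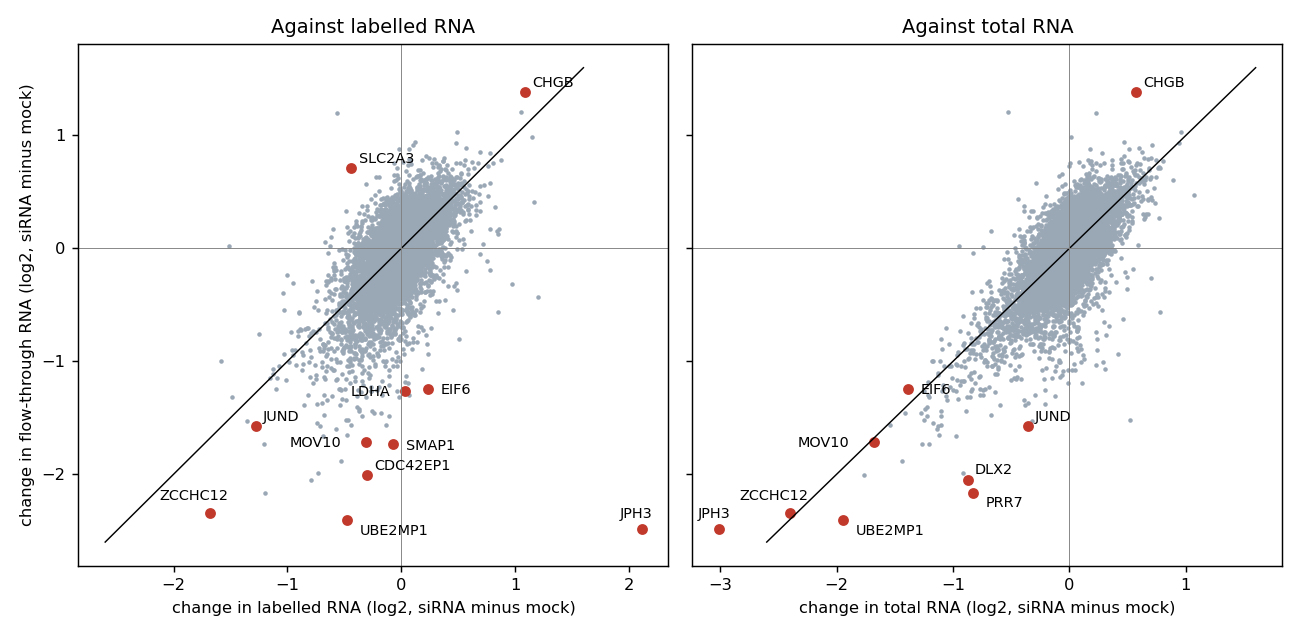
Change in flow-through RNA (y axis, log2 siRNA minus mock) against the change in labelled RNA (left x axis) and total RNA (right x axis) for the 7682 genes; grey points are genes, red points are named genes, and the black line marks equal change. EIF6 and LDHA lie far below the line on the left with labelled changes of 0.23 and 0.03, while JUND lies near it. The size of the JPH3 flow-through change depends on the mock column used.

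The immediate early genes, which growth factor signalling and stress switch on within minutes, had the lowest median change of the lists examined. Of 25 in the table, 18 fell in flow-through RNA and 0 rose, a share of 72.0% lower against 27.5% of all genes, with a median change of -0.66 against 0.004 over all genes. At an unadjusted p under 0.05 by limma 0 were higher as well, and under quantile normalisation 16 were lower and 0 higher. JUN measured 91.4 and 83.0 in mock and 31.6 and 34.2 after siRNA (change -1.38). Beside JUND and JUN, 4 more fell by over 1 log2 unit, here named after their values were seen: FOSB (-1.31), JUNB (-1.16), IER2 (-1.15) and ZFP36 (-1.03). JUNB measured 11.8 and 12.9 in mock and 4.92 and 5.02 after siRNA, and IER2 measured 29.2 and 27.1 against 11.8 and 12.7. The list was not particular to the flow-through: 21 of the 25 were lower in labelled RNA (median -0.65) and 17 in total RNA (median -0.37). Transcripts of this list had a median GC content of 55.1%, against 48.3% over all genes, and the part of base composition in the result was not tested.

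For the lists that follow, the shares to set beside each count are those of all genes, 27.5% lower and 25.7% higher. Cholesterol synthesis genes were lower in 10 of 19 cases and higher in 0 (52.6% lower, median -0.15) by limma; at an unadjusted p under 0.05 the counts were 10 and 0, and under quantile normalisation 7 and 1. DHCR7, the last enzyme of the pathway, measured 36.1 and 37.1 in mock and 20.002 and 19.1 after siRNA (change -0.88). INSIG1, which holds back the SREBP regulators, measured 25.9 and 25.1 against 17.7 and 16.6 (change -0.55). Solute carriers, the membrane transporters named SLC, were lower in 56 of 131 (42.7%) and higher in 16 (12.2%), with a median of -0.13. The zinc exporter SLC30A1 measured 8.50 and 8.23 against 3.02 and 3.55 (change -1.14). Chaperones of the endoplasmic reticulum and unfolded protein response genes had 11 of 26 lower (42.3%) and 5 higher (19.2%). EDEM1, which sends misfolded glycoproteins to degradation, changed by -0.60, and SDF2L1 by -0.72. The chaperones HSP90B1 and CALR rose, by 0.42 and 0.34. Of 13 interferon-stimulated and RNA sensor genes 5 were lower (38.5%) and 2 higher (15.4%), with a median of -0.16. IFITM3, an inhibitor of virus entry, measured 9.13 and 12.9 against 6.48 and 6.98 (change -0.62).

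Of cytosolic ribosomal proteins 30 of 54 were higher (55.6%, against 25.7% of all genes) and 5 lower, but under quantile normalisation 16 were higher and 16 lower, so no direction of the list holds under both scalings. The sizes were modest, with a median of 0.12 and a range of -0.24 to 0.54. RPS18 measured 5528 and 5424 in mock and 7937 and 8042 after siRNA (change 0.54). RPS27A measured 2519 and 2519 against 3379 and 3503 (change 0.45). RPLP2 and RPL34 fell, by 0.17 each on the log2 scale; RPLP2 lost the call with the variance shared over 12 columns (limma adjusted p = 0.102). The list median was -0.01 under quantile normalisation and between 0.09 and 0.16 in the other settings, and in total RNA it was 0.02. Many of these genes have near-identical pseudogene copies, and the authors' handling of shared reads was not stated.

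Of transcripts known as NMD targets, such as those with upstream reading frames, 9 of 15 were higher (60.0%, against 25.7% of all genes). Another 3 were lower, against 27.5% lower of all genes, and the median was 0.19. Total RNA did not show this rise: 1 was higher and 3 lower (all genes 10.7% and 14.1%), with a median of 0.03. In labelled RNA 5 were higher and 3 lower (all genes 8.6% and 10.9%), with a median of 0.14. DDIT3, the stress transcription factor CHOP, measured 45.4 and 42.8 in mock and 70.5 and 77.7 after siRNA (change 0.73, limma adjusted p = 0.000399), beside a labelled change of 0.76 and a total change of 0.12. Its difference between flow-through and labelled RNA was -0.03 (limma interaction, adjusted p = 0.865). RPL12, also a ribosomal protein, rose by 0.35. GADD45B and UPP1 fell, by 0.64 and 0.50. Of 13 NMD factors 4 were higher (30.8%, close to the share of all genes) and 1, GSPT1, was lower. The adaptors UPF3B and UPF3A rose, from 33.8 and 30.7 to 50.7 and 52.3 and from 23.1 and 22.0 to 31.7 and 35.3 (changes 0.66 and 0.55).

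Among 10 genes of microRNA silencing complexes and microRNA processing, 3 rose and 2, MOV10 and DICER1, fell, shares near those of all genes. TNRC6A, the GW182 scaffold that binds Argonaute, measured 9.36 and 9.95 in mock and 16.4 and 16.1 after siRNA (change 0.69, limma adjusted p = 0.000529). DICER1 measured 7.83 and 8.06 against 6.07 and 5.92 (change -0.36). FMR1, an RNA-binding partner of these complexes, rose by 0.28. Of known let-7 targets 7 of 24 were higher (29.2%) and 6 lower, again near the 25.7% and 27.5% of all genes. HMGA2, a chromatin protein, measured 29.5 and 27.0 in mock and 8.96 and 9.09 after siRNA (change -1.55), while IGF1R rose by 0.40 and E2F5 by 0.91. Of 18 restriction factors of retroelements and retroviruses 7 fell (38.9%) and 5 rose (27.8%), beside 27.5% and 25.7% of all genes; APOBEC3C fell by 0.58, and MORC2 and MPHOSPH8, which act with the HUSH silencing complex, rose by 0.38 and 0.36.

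The lists on RNA handling are set beside the shares of all genes, 25.7% higher and 27.5% lower. Of 37 genes for deadenylation, for decapping or for decay from the 5′ end, 11 rose and 8 fell, shares of 29.7% and 21.6%, near those of all genes. DCP2, the decapping enzyme, rose by 0.39 and LSM14B fell by 0.53. Of 18 exosome genes 6 rose (33.3%) and 3 fell (16.7%); the cofactors MPHOSPH6 and ZCCHC8 rose by 0.61 and 0.49, and WDR61 fell by 0.44. DEAD and DEAH box helicases rose in 20 of 41 (48.8%) and fell in 6 (14.6%), with a median of 0.16; under quantile normalisation 22 were higher and 2 lower. DDX10 rose by 0.52, DDX23 by 0.47, and DDX5 fell by 0.26. Translation factors rose in 18 of 46 (39.1%) and fell in 7 (15.2%), with EEF1B2 at 0.47 and EIF4A3 at 0.36, against EIF6 at -1.24 and EEF1A2 at -0.77. Splicing factors rose in 22 of 57 (38.6%) and fell in 12 (21.1%).

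Cell cycle genes rose in 28 of 61 (45.9%, against 25.7% of all genes) and fell in 11, with a median of 0.16. TOP2A, the topoisomerase of dividing cells, measured 96.7 and 93.3 in mock and 161 and 163 after siRNA (change 0.76). The cyclin CCND3 measured 32.1 and 30.9 against 15.5 and 15.9 (change -0.97). Genes named ZNF, mostly zinc finger transcription factors, rose in 110 of 331 (33.2%) and fell in 45 (13.6%), with a median of 0.14. Their median GC content was 44.1%. ZNF134 measured 9.88 and 11.1 against 18.1 and 18.2 (change 0.74), while ZNF238, which carries TACTGCA in its 3′ UTR, fell from 11.2 and 10.5 to 3.93 and 4.04 (change -1.25). Heat shock chaperones were higher in 12 of 30 and lower in 10; BAG4, an HSP70 regulator, measured 9.51 and 9.54 against 3.48 and 3.39 (change -1.25), and STIP1 rose by 0.42. Shares close to those of all genes were seen for mitochondrial ribosomal proteins (17 of 63 higher, 19 lower), nuclear-encoded oxidative phosphorylation (12 of 61 higher, 20 lower), glycolysis (6 of 20 each way) and p53 targets (5 of 18 higher, 4 lower). Proteasome subunits were higher in 14 of 32 and lower in 11, with the activator subunits PSME2 and PSME1 up by 0.56 and 0.39 and PSMA2 down at -0.31. Histones were higher in 6 of 31 and lower in 11. H2AFX, the damage-marking variant, changed by -0.85, beside 0.09 in total RNA. Genes of the ATF4 stress response were higher in 12 of 29 and lower in 7. The transcription factor CEBPB changed by -1.07, beside -0.01 in total RNA. Nuclear pore and transport genes were higher in 17 of 46 and lower in 10, with the exportin XPO4 at -0.95. Ubiquitin conjugating enzymes were higher in 8 of 28 and lower in 9, UBE2MP1 included.

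**Figure D3:**
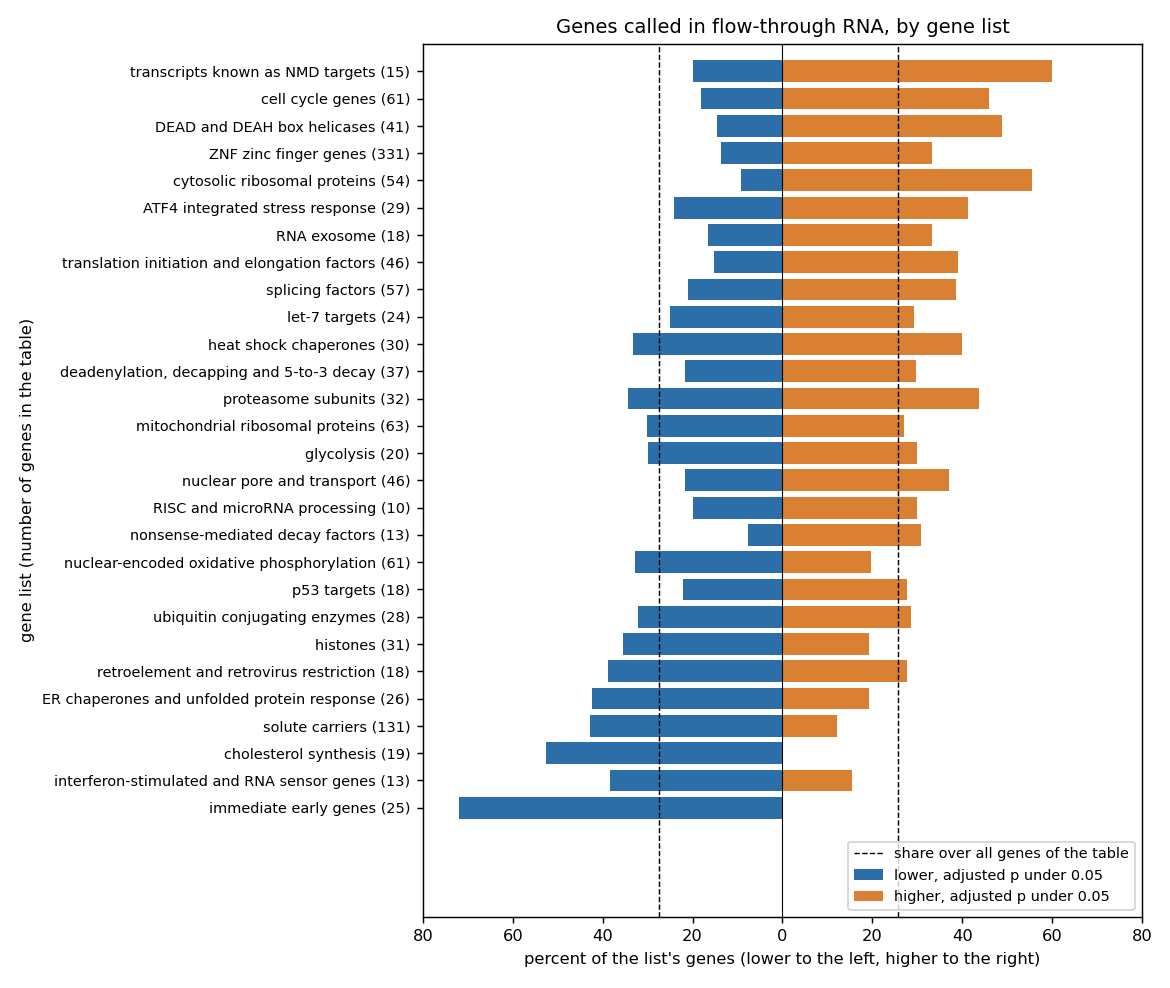
Percent of each list's genes that were lower (left, blue) or higher (right, orange) in flow-through RNA by limma at an adjusted p under 0.05; the dashed lines mark 27.5% lower and 25.7% higher over all 7682 genes, and lists are ordered by median change. Immediate early genes reach 72.0% lower with 0 higher, and cytosolic ribosomal proteins 55.6% higher, though under quantile normalisation 16 of those were higher and 16 lower.

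The 7-base sequence TACTGCA was searched on the transcript strand only, in the 3′ UTRs of 7575 genes with an annotated 3′ UTR. It was present in 939 (12.4%). Among the genes lower by 1 log2 unit or more it was present in 46 of 124 (37.1%), and among those higher by 0.5 or more in 14 of 225 (6.22%). The median change of the 939 genes was -0.07 in flow-through, -0.06 in total and -0.04 in labelled RNA, against 0.02 in flow-through RNA for genes without it. Genes in which the sequence was followed by A (265) had a median of -0.16, and those without that A (674) had -0.05. Genes with only the last 6 bases, ACTGCA, which overlaps the longer sequence, numbered 2525 and had a median of 0.01. Genes with 2 sites or more (135) had a median of -0.06 and genes with 1 site (804) had -0.08, while the shares lower by 1 log2 unit or more were 5.93% and 4.73%, so the measures differ on whether more sites went with lower values. The groups differ in length and base composition: genes with the sequence had a median 3′ UTR of 3293 bases and a median GC content of 43.3%, against 1246 bases and 49.4% without it, and no test was made. When 3′ UTRs were split into 3 bins by length, the 59 genes of the shortest bin that carry the sequence had a median of -0.30 and those without it -0.02. In the middle bin (252 carriers) the medians were -0.11 and 0.02, and in the longest (628 carriers) -0.05 and 0.05. Most of the large falls lacked it: 70 of the 124 carried TACTGCA in neither 3′ UTR nor coding part. DLX2, PRR7, ZCCHC12, LAPTM4A and JUND are among these. The labels do not state the siRNA sequence. Of 2545 human mature microRNAs from RefSeq, 0 have bases 2 to 8 that pair with TACTGCA. Its part in the changes was not tested.

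How TACTGCA ranks among all 15073 sequences of 7 bases found in 100 or more 3′ UTRs depends on the measure. All 4 rankings tried are given, each chosen after the data were seen, and TACTGCA leads 1 of them. By the plain median change it was at rank 948, and the lowest was the GC-rich GCGCGGC (103 genes, median -0.28). By the share of carriers lower by 1 log2 unit or more it was at rank 40 (4.899%), behind GCGCGGC (7.77%) and ATCTCGC (7.58%). By the flow-through minus labelled difference it was at rank 746, and GCGCGGG was first (median -0.16). After the change was fitted on the GC content of the transcript, its square and the log2 length of the 3′ UTR, it was at rank 1 (median of what was left -0.07), with CCGAATA next (-0.06).

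GC content of the transcript moved with the flow-through change over many genes. The Spearman correlation over 7592 genes was -0.39 in flow-through, -0.33 in total and -0.12 in labelled RNA. It was -0.42 for the flow-through minus labelled difference and -0.20 for the flow-through minus total difference. These are descriptions across genes, which share the same libraries. In 5 equal bins of GC content, from low to high, the median flow-through change was 0.11, 0.11, 0.06, -0.03 and -0.25. In the bin with the highest GC content (58.3% to 74.6%) 56.2% of genes were lower and 3.82% higher, and the median was -0.10 in total and -0.09 in labelled RNA. Without that bin, 1259 genes were lower and 1919 higher by limma, and 79 were lower by 1 log2 unit or more. The part of base composition in these changes was not tested. When the genes with a 3′ UTR were split into 3 bins of GC content, the lowest bin had 23 of 491 genes with TACTGCA (4.68%) lower by 1 log2 unit or more, against 9 of 2034 without it (0.442%), with median changes of -0.03 and 0.15. In the middle bin the shares were 4.50% and 0.684%, with medians of -0.05 and 0.08. In the highest bin the shares were 6.96% and 2.24%, with medians of -0.32 and -0.17.

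**Figure D4:**
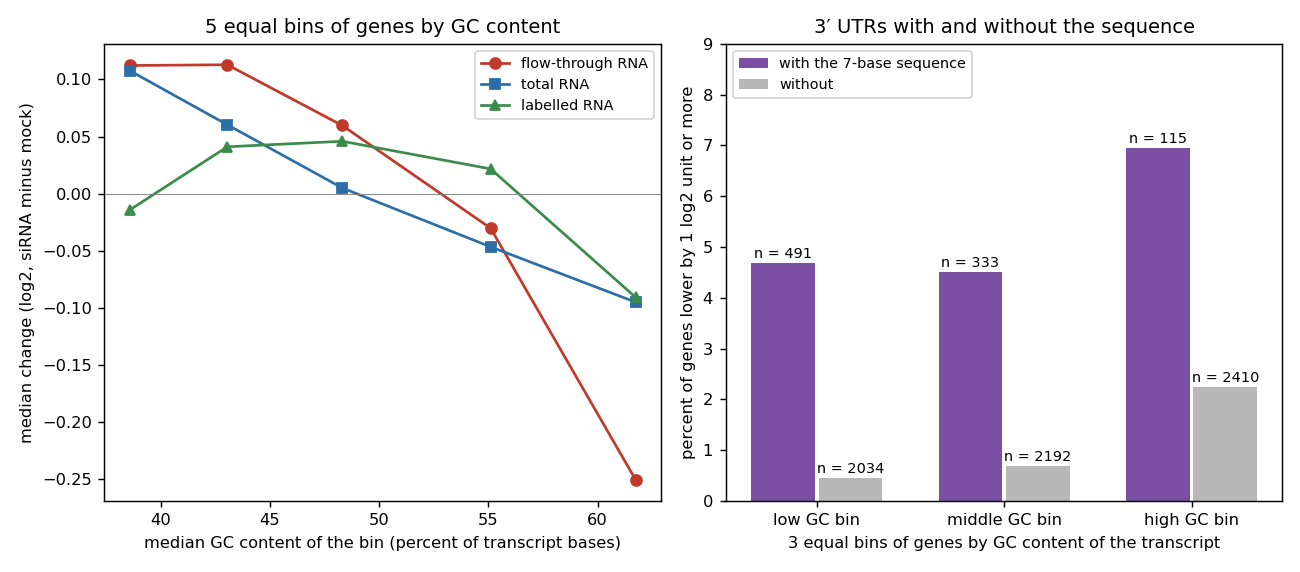
Left: median change (y axis, log2 siRNA minus mock) in 5 equal bins of genes by GC content, at the median GC percent of each bin (x axis), for flow-through (red), total (blue) and labelled RNA (green). Right: percent of genes lower by 1 log2 unit or more in flow-through RNA, with (purple) and without (grey) the 7-base sequence in the 3′ UTR, in 3 bins of GC content; the highest of the 5 bins has a flow-through median of -0.25, and the 3 bins on the right show 4.68% against 0.442%, 4.50% against 0.684% and 6.96% against 2.24%.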

How the data were processed

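Per the labels' protocols, total RNA was biotinylated on 4sU and split on streptavidin beads, and poly(A)+ TruSeq libraries of each fraction were sequenced for 100 cycles. Per the submitters' processing notes, the aligner was TopHat2 2.06 and the build hg18. Not given in the sources used here are the tool, annotation and strand setting behind the values. The authors deposited 1 table with 12 columns of normalised signal, with no unit named, which was used as deposited. Another 4 columns (half-lives) were not used. Dates stand in place of 10 gene symbols, which match no list.

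From the signal, log2(value + 1) was taken, each column was centred on its median gene, and 2 siRNA columns were compared with 2 mock columns by limma 3.58.1 (R 4.3.3) with a mean-variance trend, Benjamini-Hochberg adjusted over all 7682 genes at 0.05. Differences between fractions were tested as interaction terms over 12 columns. No floor was set beyond the table's own, since a floor on siRNA values removes genes that fell. In simulated data for the flow-through comparison, 200 of 7682 genes were changed and noise was drawn independently for each column. There limma found 92% of the genes changed by 1 log2 unit and 56% of those changed by 0.5. False calls made up 2.63% of the calls. Far fewer genes were changed there than the 4090 called in the real data, so that share does not carry over. Folds are ratios of column means.

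The comparison, the gene lists and the 7-base sequence were chosen with earlier results of these data known. Named were MOV10 and UPF1; the 15 largest falls and 12 largest rises that passed the test with separated columns and a mean of 5 or more; of each list the 2 largest called rises and falls; and the 4 largest differences from labelled RNA each way. Transcript sequences are GENCODE v29, matched by symbol (7188) or synonym (408), taking the coding transcript with the longest 3′ UTR of at least 20 bases; 86 symbols were unmatched. No coordinates are given, since the builds differ. Alternatives were another pseudocount, floors, no centring, quantile normalisation, a replicate block, other variance models and leaving out each column; excluding genes with TACTGCA or of high GC content was added after the data were seen.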

Additional observations from a re-analysis of the deposited data

Results flagged for a closer look

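Listed here are the 4 largest differences each way between the flow-through and the labelled change among genes past the interaction test. JPH3 differed by -4.60 (SE 1.03, limma adjusted p = 0.0143), with a flow-through change of -2.49 and a labelled change of 2.11. The size of that flow-through change depends on the mock column used. It was -0.71 without mock replicate 1 and -4.26 without mock replicate 2. UBE2MP1 differed by -1.93 (SE 0.10, limma adjusted p = 7.16e-07), CDC42EP1 by -1.71 (SE 0.15) and SMAP1 by -1.66 (SE 0.12). In the other direction, SLC2A3 differed by 1.15 (SE 0.11, limma adjusted p = 4.29e-05). ADARB1, an RNA-editing deaminase that carries TACTGCA in its 3′ UTR, differed by 0.88 (SE 0.17), JAZF1 by 0.85 (SE 0.12) and MTMR9 by 0.82 (SE 0.11). The last 4 genes had a positive flow-through change and a negative labelled change. The labelled fall passed limma in SLC2A3 (-0.44, adjusted p = 0.00704). It did not pass in ADARB1 (-0.31, limma adjusted p = 0.0629), JAZF1 (-0.22, 0.103) or MTMR9 (-0.19, 0.147).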

How the results depend on the processing

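Across the settings tried, the calls of 1977 higher and 2113 lower genes stayed within 1.5 times, except that without the GC bin of highest content, 1 of 5 (added after the data were seen) 1259 were lower. With a pseudocount of 0.1, the genes changed by 1 log2 unit or more were 197 downwards and 9 upwards, in place of 127 and 4. With a total RNA floor of 5 in both conditions, 1 was higher by that much. Without genes that carry TACTGCA 81 were lower by 1 log2 unit or more, and without the highest GC bin 79. Leaving out each column in turn gave 1377 to 1602 higher and 1680 to 1891 lower genes, and 2 to 6 higher and 116 to 150 lower by 1 log2 unit or more; the lone column of a group is then assumed to vary like the pair. In the interaction fits it gave 50 to 123 genes above and 192 to 322 below their labelled change, and 2 to 40 above and 8 to 164 below their total change, so these counts rest on all columns. Of 128 named genes, 0 reversed; at most 5 lost the call in a setting, without siRNA replicate 1 (RPL34, BBC3, IFITM3, IFITM2 and DDX28), while HIST1H3D and RPLP2 lost it with the variance shared over 12 columns. JPH3 gained the call with the replicate block, with that shared variance, and without either mock replicate. The replicate numbers were not shown to pair the columns: the differences between replicates 2 and 1 correlated over genes at 0.09 between mock and siRNA. With the replicate block 1994 genes were higher and 2169 lower, 4 and 127 by 1 log2 unit or more, and the interaction gave 265 above and 526 below labelled and 174 above and 264 below total RNA. Since the values are not counts, depth sets no stated limit here; genes near the table's minimum are least certain, and 10 of the 127 large falls had an siRNA column under 2.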
